A study of Homo sapiens with 6 samples.

Results

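Histone protein genes were described in F36P cells, a human leukaemia line with erythroid features, after CRISPR targeting of HDAC7, a class IIa histone deacetylase. They were taken as every row of the count table whose symbol begins with H1-, H2A, H2B, H3-, H3C, H4-, H4C or MACROH2A. That rule found 62 of the 16315 genes in the table. By symbol, 47 are clustered, replication-dependent genes, 11 are replacement and other variants, and 4 are pseudogenes or an antisense RNA. The clustered genes include the pseudogenes H2BC19P and H2BC20P.

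In the sgHDAC7 group, 3 libraries came from F36P cells that carried a CRISPR guide to HDAC7 and have the genotype HDAC7 knockout. In the sgNT group, 3 libraries came from F36P cells with a non-targeting guide and have the genotype WT. Both plasmids carried puromycin resistance, and cells of both groups went through 4 days of puromycin at 1 µg/ml before collection. The study asked how HDAC7 acts in erythroid differentiation. The libraries are labelled as biological replicates, without a statement that they came from separate transductions or cultures, so p-values measure the spread between these libraries. The labels do not say whether the edited cells were 1 clone or a pool, and 1 cell line stands for the tissue.

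Nucleosomes wrap DNA around the core histones H2A, H2B, H3 and H4, and linker H1 histones bind where the DNA enters and leaves. The clustered genes are transcribed mainly in S phase to package new DNA, and their mRNAs normally end in a stem-loop that binds SLBP, without a poly(A) tail. Replacement variants such as H3.3 and H2A.Z are made outside S phase as well, mostly from polyadenylated mRNAs. In differentiating cells a part of the clustered mRNA is polyadenylated downstream of the stem-loop, and in the erythroid lineage histone synthesis and chromatin compaction change as cells mature. Since mRNA was captured here on poly-T beads, the values for clustered genes are those of the transcripts that the beads kept, and not of the whole pool of histone mRNA.

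The stem-loops of 4 clustered genes that fell are shown together with that of H2AX, a variant whose mRNA carries one too. Capitals mark the 16 bases of the histone stem-loop, which has 6 base pairs and a loop of 4, and the 5 bases on either side are in lower case. They were read from GENCODE 29 transcripts.
H3C10: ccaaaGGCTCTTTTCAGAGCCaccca
H2BC5: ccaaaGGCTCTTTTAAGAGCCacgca
H2BC21: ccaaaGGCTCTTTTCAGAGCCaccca
H4C15: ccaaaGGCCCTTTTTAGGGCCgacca
H2AX: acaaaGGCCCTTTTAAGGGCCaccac
The 16 bases are the same in H3C10 and H2BC21, and this form was found in 13 histone genes. A stem-loop was found in 26 of the 46 clustered genes that have a GENCODE 29 transcript and in 2 of 11 variants, H2AX and H2AW. Many clustered entries of that annotation hold the coding part alone, H2BC12 among them, so a missing match says nothing of the mRNA. In 21 clustered genes the annotated transcript ran on for more than 100 bases after the stem-loop, and in 16 of these 21 a poly(A) signal, AATAAA or ATTAAA, lay within its last 50 bases. The transcript went on for 769 bases after the stem-loop in H3C10, 1729 in H2BC21, 1314 in H4C15, 1044 in H2AX and 39 in H2BC5.

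The promoters of the H2B genes that fell are shown because these genes share a family and a direction. They reach from upstream of the gene's start to just past it, are printed in the gene's orientation and are RefSeq sequences of GRCh38.p14. Capitals mark the octamer ATTTGCAT, the CCAAT box and TATAAA, each searched on both strands, so that ATTGG and TTTATA are reverse matches. Overlapping matches of TATAAA on both strands were counted separately.
H2BC12, chr6:27146809-27147108, minus strand: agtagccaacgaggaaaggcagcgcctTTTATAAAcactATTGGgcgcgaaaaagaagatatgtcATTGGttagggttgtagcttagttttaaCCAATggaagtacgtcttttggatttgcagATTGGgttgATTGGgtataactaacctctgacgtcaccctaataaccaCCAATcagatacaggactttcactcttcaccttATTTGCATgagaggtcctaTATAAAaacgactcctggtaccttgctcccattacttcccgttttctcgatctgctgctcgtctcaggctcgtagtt
H2BC21, chr1:149886633-149886932, minus strand: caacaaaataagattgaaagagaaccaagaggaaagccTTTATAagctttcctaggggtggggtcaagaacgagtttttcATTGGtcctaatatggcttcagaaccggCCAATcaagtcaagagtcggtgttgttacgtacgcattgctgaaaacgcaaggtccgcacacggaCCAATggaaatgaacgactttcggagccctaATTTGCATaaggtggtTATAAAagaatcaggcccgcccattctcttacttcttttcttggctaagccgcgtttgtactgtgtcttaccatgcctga
H2BC5, chr6:26157871-26158170, plus strand: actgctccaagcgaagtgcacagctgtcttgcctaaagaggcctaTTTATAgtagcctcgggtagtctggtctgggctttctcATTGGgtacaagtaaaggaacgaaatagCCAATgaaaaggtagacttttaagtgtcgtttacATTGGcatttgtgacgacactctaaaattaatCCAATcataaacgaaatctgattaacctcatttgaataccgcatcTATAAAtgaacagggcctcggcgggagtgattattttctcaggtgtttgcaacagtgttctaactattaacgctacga
The octamer was present in the H2BC12 and H2BC21 windows and not in that of H2BC5. It was present in 10 of 13 promoter entries of clustered H2B genes (76.9%), in 63.6% of those of clustered H2A genes, in 1 of 11 of clustered H3 genes, in 0 of 7 of clustered H4 genes and in 1.77% of all 35116 promoters. A CCAAT box was present in 100% of clustered H2B entries and in 34.6% of all promoters, and TATAAA in 69.2% of clustered H2B entries and 11.5% of all promoters. The GATA-type motif AGATAA was present in 8.7% of all clustered entries and in 10.3% of all promoters. A match describes these letters and is not a binding site.

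The sgHDAC7 libraries held 11645003 to 12521195 counts, and the sgNT libraries 10039693 to 11149179. HDAC7 mRNA was at 194, 239 and 246 CPM (counts scaled to library size) in sgHDAC7 and at 450, 460 and 462 CPM in sgNT, a log2 fold change of -1.02 ± 0.09 (SE; edgeR quasi-likelihood test, adjusted p = 0.00139). Summed markers of the erythroid line, of which 8 of 8 were tested, were at 14478 to 19457 CPM in sgHDAC7 and at 10360 to 14734 CPM in sgNT. Markers of T and B cells summed to 14.2 to 19.5 CPM in sgHDAC7 and 17.7 to 18.1 CPM in sgNT, over 3 of 6 in the table, and fibroblast and epithelial markers to 22.1 to 45.9 CPM in sgHDAC7 and 11.2 to 75.1 CPM in sgNT, over 5 of 8. The share of mitochondrial transcripts was 3.46% to 3.79% in sgHDAC7 libraries and 2.72% to 3.96% in sgNT libraries. Replicate 1 stood apart in both groups: counts differed between replicates 2 and 3 by a chi-square of 3.24 per degree of freedom in sgHDAC7 and 3.53 in sgNT, and between replicate 1 and either of them by 7.92 to 15.6. Values for the replicate 1 libraries and for replicates 2 and 3 therefore stand beside each main result.

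Most clustered histone mRNAs lay lower in sgHDAC7 cells, with 5 genes past the test. The replacement and other variants scattered around 0, with log2 fold changes from -0.63 (H2AW) to 0.35 (H2AX). Of the 50 histone genes with a mean of at least 1 CPM, 5 fell and 0 rose in the edgeR test at an adjusted p under 0.05, and all of the 5 are clustered: H3C10, H2BC5, H2BC21, H4C15 and H2BC12. Over all 13841 genes tested, 1.7% were called lower and 1.16% higher, 2.86% in both directions. The 5 calls are 13.9% of the 36 clustered genes tested. The median log2 fold change was -0.46 over those 36 genes, with 30 below 0 and 6 above, against -0.08 over the 11 variants, with 7 below and 4 above, and -0.0016 over all genes. In 13 of the 36 clustered genes every sgHDAC7 library lay below every sgNT library and in 0 the reverse held, where 12.2% of all genes were lower and 13% higher without overlap. In bulk RNA captured on poly-T beads, fewer cells in S phase, less histone mRNA per cell and a smaller part kept by the beads cannot be told apart.

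**Figure D1:**
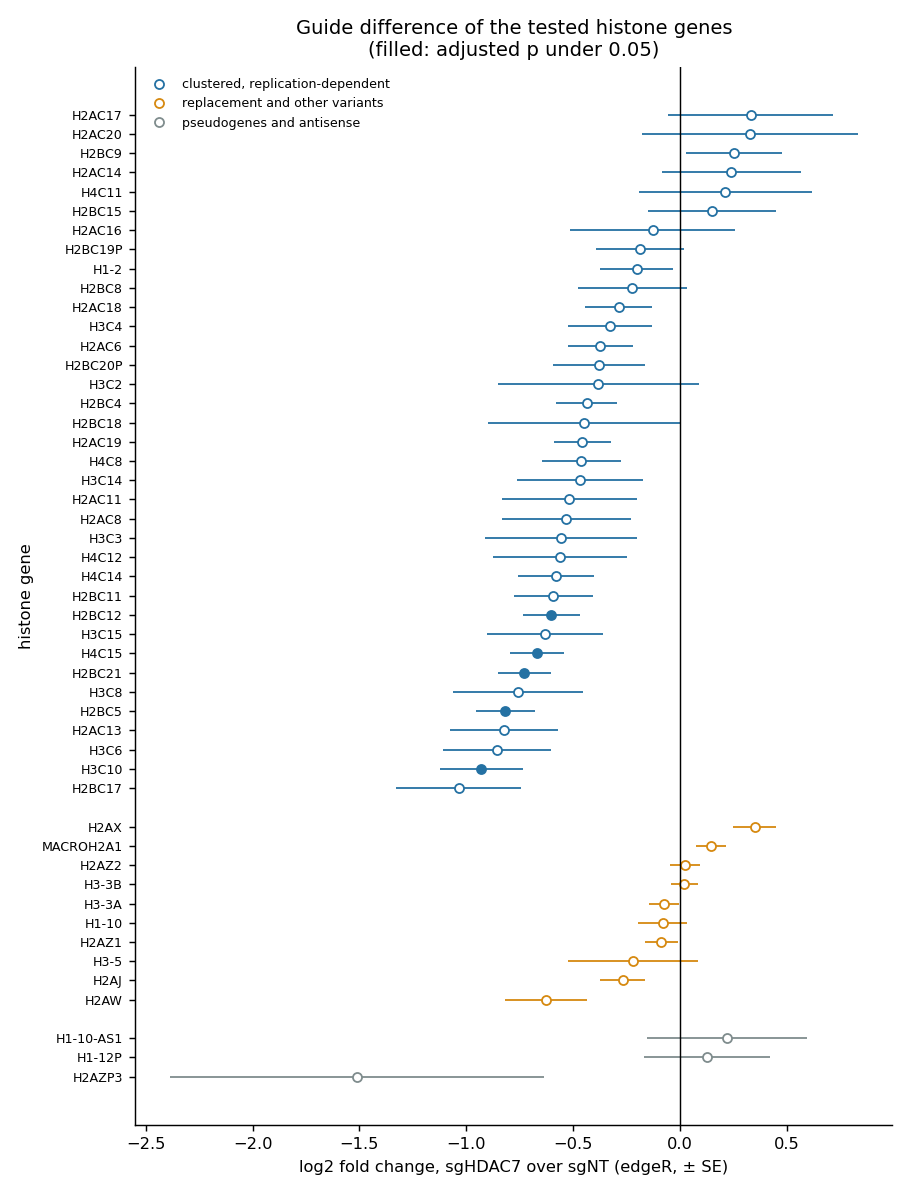
Log2 fold change (sgHDAC7 over sgNT) with its standard error on the horizontal axis for 49 of the tested histone genes, grouped by class down the page; filled points have an adjusted p under 0.05 in edgeR. Clustered genes lie mostly left of 0, with a median of -0.46, and the variants around 0, with a median of -0.08.

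Among the H3 genes, H3C10, which encodes canonical histone H3.1, had 5.72, 4.06 and 5.42 CPM in sgHDAC7 and 8.30, 9.89 and 10.8 CPM in sgNT. All sgHDAC7 libraries were below all sgNT libraries. The log2 fold change was -0.93 ± 0.19 (SE, n = 3 each), 1.91-fold lower, with an adjusted p of 0.0399 in edgeR. The gene lies at chr6:27810051-27810536 of GRCh38, in the large histone cluster of chromosome 6, and none of its transcript's 50-base windows is shared with another transcript of the annotation. H3C6, another H3.1 gene and chosen after its values were seen, had 5.07, 3.37 and 3.97 CPM in sgHDAC7 and 5.44, 7.64 and 9.41 CPM in sgNT, without overlap, but did not pass (log2 fold change -0.86 ± 0.25, edgeR adjusted p = 0.104). The 8 clustered H3 genes tested were all below 0, with a median of -0.59, and 1 of them was called.

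The H2B genes gave the largest number of calls, 3 of 12 tested. H2BC5 encodes H2B type 1-D and spans chr6:26158121-26171349. It had 18.6, 17.9 and 15.9 CPM in sgHDAC7 and 25.7, 31.0 and 35.6 CPM in sgNT. The groups did not overlap, and sgHDAC7 libraries were close to each other. The log2 fold change was -0.82 ± 0.14 (SE), 1.76-fold lower, with an edgeR adjusted p of 0.0221. H2BC21 encodes H2B type 2-E and lies at chr1:149884459-149886682, in the smaller cluster at 1q21. It had 20.4, 18.1 and 18.7 CPM in sgHDAC7 and 27.0, 34.6 and 33.2 CPM in sgNT. Again no library of one group reached into the other, and sgNT replicate 1 was the lowest of the controls. Its log2 fold change of -0.73 ± 0.12 (SE) had an edgeR adjusted p of 0.0221.

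H2BC12, which encodes H2B type 1-K, spans chr6:27138293-27146858. It had 159.6, 133 and 136.5 CPM in sgHDAC7 and 169, 249 and 233 CPM in sgNT. The groups did not overlap, but sgNT replicate 1 was nearer to the sgHDAC7 libraries than to the other sgNT libraries. The log2 fold change was -0.60 ± 0.13 (SE, edgeR adjusted p = 0.0481), and 74.1% of its 50-base windows also occur in other transcripts, so reads of near-identical H2B copies may be counted here. H2BC17, the clustered gene with the lowest fold change, had 1.93, 2.16 and 1.38 CPM in sgHDAC7 and 3.95, 4.40 and 2.85 CPM in sgNT. Its groups did not overlap, yet at this depth it did not pass (log2 fold change -1.04 ± 0.29, edgeR adjusted p = 0.0915). The median over the 12 H2B genes was -0.44.

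The clustered H4 genes measured here encode the same core histone H4. H4C15, at chr1:149844488-149861240 in the 1q21 cluster, had 28.3, 20.3 and 25.2 CPM in sgHDAC7 and 37.7, 38.8 and 40.9 CPM in sgNT. The sgHDAC7 libraries were all below the sgNT libraries, which lay close together. H4C15 had a log2 fold change of -0.67 ± 0.13 (SE, edgeR adjusted p = 0.0287). As 97.2% of its windows are shared with another transcript, the value may belong to H4C15 and a near-identical copy together. H4C14, chosen after its values were seen and with 97.5% of windows shared, had 10.3, 8.81 and 8.17 CPM in sgHDAC7 and 10.7, 14.6 and 15.6 CPM in sgNT, and did not pass (log2 fold change -0.58 ± 0.18, edgeR adjusted p = 0.113). The median over the 5 H4 genes tested was -0.56.

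**Figure D2:**
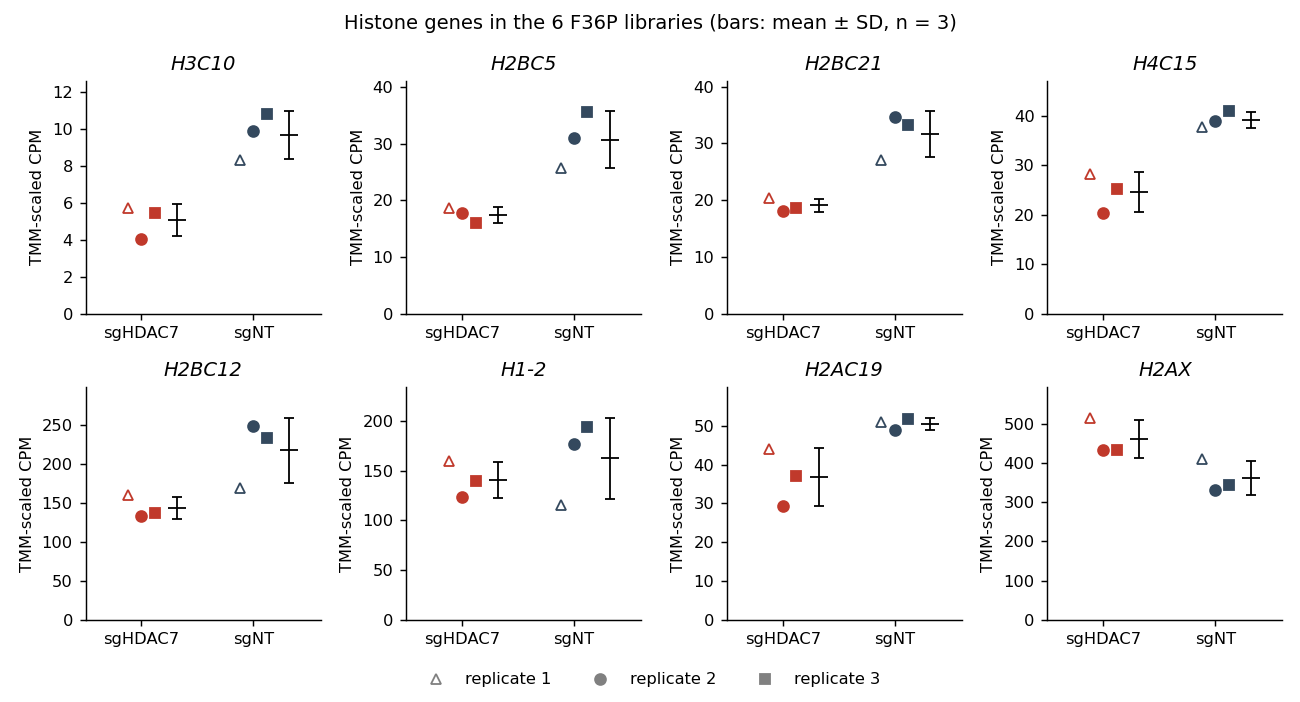
TMM-scaled CPM on the vertical axis, from 0, in the 3 sgHDAC7 libraries on the left and the 3 sgNT libraries on the right of each panel; symbols mark the replicate number and bars give mean ± SD. The 5 genes that fell (H3C10, H2BC5, H2BC21, H4C15 and H2BC12) have no overlap between groups, H2AX is higher in every sgHDAC7 library, and in H1-2 the sgNT replicate 1 library is low and the groups overlap.

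No H2A gene of the clusters passed the test: 0 of 10 in edgeR, against 3 lower and 0 higher at an unadjusted p under 0.05 and 1 lower by DESeq2. Over all genes DESeq2 called 3.04% lower and 2.1% higher, and an unadjusted p under 0.05 held for 9.99% lower and 9.18% higher. H2AC19, an H2A type 2-A gene with 97.1% of its windows shared, had 44.0, 29.3 and 37.1 CPM in sgHDAC7 and 51.1, 48.8 and 51.8 CPM in sgNT. These groups did not overlap, and the log2 fold change was -0.46 ± 0.13 (SE, edgeR adjusted p = 0.0995). Its neighbour and near copy H2AC18 had 45.7, 29.4 and 34.4 CPM in sgHDAC7 and 38.5, 47.2 and 47.9 CPM in sgNT, with replicate 1 of sgHDAC7 inside the range of sgNT (log2 fold change -0.29 ± 0.16, edgeR adjusted p = 0.356). H2AC6, which encodes H2A type 1-C, had 39.0, 28.1 and 28.3 CPM in sgHDAC7 and 34.7, 44.0 and 44.8 CPM in sgNT. It showed the same overlap through the replicate 1 libraries (log2 fold change -0.37 ± 0.15, edgeR adjusted p = 0.213). The median over the 10 H2A genes was -0.33.

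H1-2, the single clustered linker histone above the filter, had 160.2, 124 and 139 CPM in sgHDAC7 and 116, 177 and 194 CPM in sgNT. The replicate 1 libraries were in the opposite order to the others, with a log2 ratio of 0.46 between them and of -0.49 in replicates 2 and 3. Over all libraries the log2 fold change was -0.20 ± 0.17 (SE, edgeR adjusted p = 0.560). H1-3, H1-4 and H1-5 were below the filter.

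Clustered genes had like medians at either locus. The median was -0.46 over 25 genes of the chromosome 6 cluster, with 3 called, and -0.46 over 11 genes at 1q21, with 2 called. It was -0.47 over the 18 tested genes whose transcript runs on for more than 100 bases after the stem-loop, with 3 called, and -0.46 over 17 without such a transcript, with 2 called. Those 17 include genes whose entry holds the coding part alone, such as H2BC12, so this split does not compare mRNA ends. Among the 23 tested genes with under 50% of windows shared with other transcripts the median was -0.45 and 3 were called. These genes are part of the same class, so their median is not independent of the class median. The part of shared sequence was not tested. The 15 clustered genes with a mean of at least 5 CPM were all below 0, with a median of -0.58, and they hold the 5 calls.

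Clustered genes, mostly H2A with H2B, often stand head to head and share a promoter region. Pairs were sought only among the 50 members with a promoter sequence, so H2AC12, which lies next to H2BC12, could not be paired. Of 7 head-to-head pairs of histone genes within 1000 bases, H2BC11 and H2AC11, 248 bases apart, had log2 fold changes of -0.59 ± 0.18 and -0.52 ± 0.31, and H2BC4 and H2AC6, 246 bases apart, of -0.44 ± 0.14 and -0.37 ± 0.15. These values lie on the same side of 0 and none passed in edgeR (adjusted p = 0.116, 0.406, 0.135 and 0.213). H2BC21, which fell, faces H2AC20 at 236 bases, which had 1.53, 0.691 and 1.94 CPM in sgHDAC7 and 1.78, 0.539 and 1.05 CPM in sgNT. At these low counts a difference in H2AC20 was not detectable (log2 fold change 0.33 ± 0.50, edgeR adjusted p = 0.778). In the same way H2BC17 faces H2AC17, at 0.33 ± 0.39 (edgeR adjusted p = 0.694). The difference within a pair was not tested.

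None of the 11 variants was called in edgeR, against 1 higher and 3 lower at an unadjusted p under 0.05, and 1 higher and 2 lower by DESeq2. Over all genes edgeR called 2.86% in both directions, so 0 calls among 11 genes are near that share. At an unadjusted p under 0.05, 9.18% of all genes were higher and 9.99% lower, and DESeq2 called 2.1% higher and 3.04% lower. The H3.3 genes H3-3A and H3-3B encode the same replacement histone, which is placed into chromatin outside replication. H3-3A had 145.8, 146 and 156 CPM in sgHDAC7 and 160.4, 166 and 146 CPM in sgNT (log2 fold change -0.08 ± 0.07, edgeR adjusted p = 0.603). H3-3B had 489, 464 and 486 CPM in sgHDAC7 and 504, 452 and 462 CPM in sgNT (log2 fold change 0.02 ± 0.06, edgeR adjusted p = 0.897). In both genes the libraries of the groups overlapped.

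The H2A.Z genes, whose product marks promoters and other regulatory sites, overlapped as well. H2AZ1 had 365, 324 and 338 CPM in sgHDAC7 and 388, 373 and 331 CPM in sgNT (log2 fold change -0.09 ± 0.08, edgeR adjusted p = 0.583). H2AZ2 had 134.4, 132 and 122 CPM in sgHDAC7 and 135, 121 and 126 CPM in sgNT (log2 fold change 0.02 ± 0.07, edgeR adjusted p = 0.887). The linker H1-10 had 117, 92.2 and 112 CPM in sgHDAC7 and 96.4, 126 and 117 CPM in sgNT (log2 fold change -0.08 ± 0.12, edgeR adjusted p = 0.758). Directions of H3-3B, H2AZ2 and H1-10 turned when single libraries were left out.

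MACROH2A1, a large H2A variant with an added macro domain, had 349, 309 and 315 CPM in sgHDAC7 and 306, 283 and 293 CPM in sgNT. Its sgHDAC7 libraries were all higher by a small margin (log2 fold change 0.14 ± 0.07, edgeR adjusted p = 0.293). H2AJ, a variant that builds up in senescent human fibroblasts, had 24.2, 20.98 and 24.7 CPM in sgHDAC7 and 27.8, 28.5 and 27.9 CPM in sgNT. These groups did not overlap (log2 fold change -0.27 ± 0.11, edgeR adjusted p = 0.205).

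H2AX, the variant that is phosphorylated beside DNA breaks, had the highest fold change of the 50 histone genes tested. It had 515, 433 and 432 CPM in sgHDAC7 and 410.1, 331 and 343 CPM in sgNT. Replicate 1 was the highest library in each group, and the groups did not overlap. The log2 fold change of 0.35 ± 0.10 (SE) missed the threshold with an edgeR adjusted p of 0.0945. With a term for replicate 1 it was called higher (edgeR adjusted p = 0.000996), and its log2 ratios were alike, 0.33 in replicate 1 and 0.36 in replicates 2 and 3. DESeq2 called it as well (adjusted p = 0.0317). H2AX lies at chr11:119093874-119095465, far from the clusters, and 0.311% of its windows are shared with other transcripts.

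H2AW, an H2A gene outside the main clusters and chosen after its values were seen, had 14.5, 9.84 and 11.5 CPM in sgHDAC7 and 14.3, 21.8 and 19.3 CPM in sgNT. The sgNT replicate 1 library lay inside the range of the sgHDAC7 libraries, apart from the other sgNT libraries (log2 fold change -0.63 ± 0.19, edgeR adjusted p = 0.113). RefSeq lists H2AW as H2AC25, a symbol of the clustered kind, and here it counts as a variant by the name in the table.

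**Figure D3:**
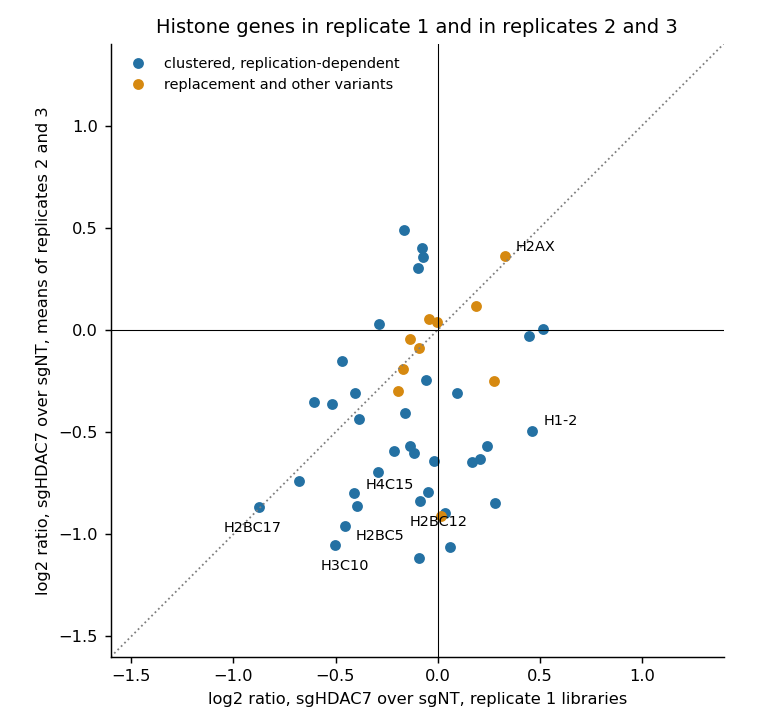
Log2 ratio of sgHDAC7 over sgNT between the replicate 1 libraries on the horizontal axis and between the means of replicates 2 and 3 on the vertical axis, 1 point for each of 46 tested clustered or variant genes; the dotted line marks equal ratios. Many clustered genes lie low on the vertical axis and near 0 on the horizontal one, with medians of -0.58 and -0.10, while H2AX has about the same ratio on both axes.

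The difference in clustered genes was smaller between the replicate 1 libraries. The median log2 ratio over the 36 clustered genes was -0.10 in replicate 1, with 26 below 0, and -0.58 in replicates 2 and 3, with 30 below 0. For the 11 variants it was -0.0032 in replicate 1 and -0.09 in replicates 2 and 3. The called genes kept their direction in replicate 1, at -0.50 for H3C10, -0.46 for H2BC5, -0.40 for H2BC21, -0.41 for H4C15 and -0.08 for H2BC12. In replicates 2 and 3 they were at -1.05, -0.96, -0.86, -0.80 and -0.84. Whether replicate 1 differs in its response was not tested.

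With a term for replicate 1 in the edgeR fit, 12 histone genes were lower and 1 higher, where 6.81% of all genes were called lower and 5.78% higher. The 10 clustered genes among them make up 27.8% of those tested: the 5 named above with H2BC17, H3C6, H2BC11, H4C14 and H2AC19. Of the 11 variants 2 were lower (18.2%), H2AW among them, and 1 was higher, H2AX. In replicates 2 and 3 alone, 16 of the 36 clustered genes were lower (44.4%) and 0 higher, where 10.9% of all genes were called lower and 9.72% higher. Of the 11 variants 3 were lower there (27.3%) and 1 was higher, H2AX. The lower ones included H2AW (edgeR adjusted p = 2.72e-05) and H1-10 (log2 fold change -0.25, edgeR adjusted p = 0.0150). Any single library of replicates 2 and 3 left out of the fit with group alone ended all 5 calls. The fits lacking sgHDAC7 replicate 2, sgHDAC7 replicate 3, sgNT replicate 2 and sgNT replicate 3 called 0 histone genes and 0.195%, 0.224%, 0.34% and 0.361% of all genes. Leaving out sgHDAC7 replicate 1 gave 4 calls, with 1.65% of all genes called, and leaving out sgNT replicate 1 gave 13, with 11.5%. The fit lacking sgHDAC7 replicate 1 kept 3 of the 5 and lost H2BC12 and H3C10 (edgeR adjusted p = 0.0584 for each). Its other call was H2AC19 (edgeR adjusted p = 0.0436). The fit lacking sgNT replicate 1 kept all 5. At an unadjusted p under 0.05 the fit with all libraries had 19 histone genes lower and 1 higher. Over all genes, 9.99% were lower and 9.18% higher at that cut.

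Summed over the 47 clustered genes, mRNA was at 641.6, 507 and 540.1 CPM in sgHDAC7 and 641.8, 826 and 845 CPM in sgNT. The replicate 1 libraries held nearly the same amount, and the other sgHDAC7 libraries were both below the other sgNT libraries. The means were 563 ± 70.1 CPM in sgHDAC7 and 771 ± 112 CPM in sgNT (SD, n = 3 each), a ratio of 0.730. The 11 variants summed to 2660.0, 2384 and 2453 CPM in sgHDAC7 and 2534, 2701 and 2664 CPM in sgNT, with overlap, for a ratio of means of 0.949. Without the 5 genes that fell, the clustered sum was 354 ± 49.5 CPM in sgHDAC7 and 443 ± 61.1 CPM in sgNT (SD), a ratio of 0.799. For every 100 counts of variants there were 24.1, 21.3 and 22.0 counts of clustered genes in sgHDAC7 and 25.3, 30.6 and 31.7 in sgNT. This quotient within a library, which needs no scaling between libraries, did not overlap between the groups. No p is given for these sums, since the genes were chosen with earlier results of these data known. Clustered genes took 0.0505% to 0.0639% of all counts in sgHDAC7 and 0.0647% to 0.0851% in sgNT.

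**Figure D4:**
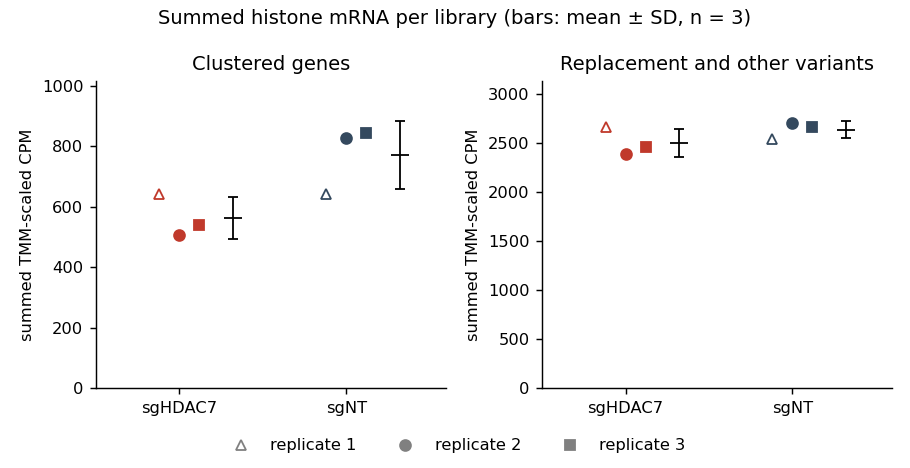
Summed TMM-scaled CPM on the vertical axis, from 0, for the 47 clustered genes and for the 11 variants, in the 3 sgHDAC7 libraries on the left and the 3 sgNT libraries on the right of each panel; bars give mean ± SD. The clustered sum averaged 563 CPM in sgHDAC7 and 771 CPM in sgNT, with the replicate 1 libraries at nearly the same height.

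No gene on the lists for making, processing and carrying histones was called with all libraries and group alone. Over all genes that fit called 2.86% in both directions, so 0 calls in lists of this size are near that share. At an unadjusted p under 0.05, 9.18% of all genes were higher and 9.99% lower, and DESeq2 called 2.1% higher and 3.04% lower. Of 27 genes for histone mRNA synthesis and processing, 0 were called in edgeR, against 6 higher and 1 lower at an unadjusted p under 0.05 and 1 higher by DESeq2, and their median log2 fold change was 0.08. With a term for replicate 1, 5 of the 27 were higher and 0 lower, and in replicates 2 and 3 alone 6 were higher and 1 lower, where 5.78% and 9.72% of all genes were called higher. SLBP, the stem-loop binding protein, had 189, 187 and 188 CPM in sgHDAC7 and 191, 167 and 153 CPM in sgNT. The groups overlapped through sgNT replicate 1 (log2 fold change 0.14 ± 0.08, edgeR adjusted p = 0.379). NPAT, the coactivator of clustered histone transcription, was at 0.06 ± 0.08 (edgeR adjusted p = 0.708), and CASP8AP2, a histone locus body protein, at 0.03 ± 0.08 (edgeR adjusted p = 0.859). Of 33 histone chaperones and importers 0 were called in edgeR, against 5 higher and 0 lower at an unadjusted p under 0.05 and 0 by DESeq2, with a median of 0.08. With a term for replicate 1, 0 of the 33 were called, and in replicates 2 and 3 alone 7 were higher and 0 lower. The centromeric H3 variant CENPA, which the naming rule does not take in, had 51.9, 47.5 and 48.6 CPM in sgHDAC7 and 60.9, 56.4 and 56.2 CPM in sgNT, without overlap. It did not pass with group alone (log2 fold change -0.23 ± 0.08, edgeR adjusted p = 0.150) and was called lower with a term for replicate 1 (edgeR adjusted p = 0.0488).

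Other S-phase genes lay mostly on the other side of 0 from the clustered histones. Of 34 other S-phase genes 29 were above 0, with a median of 0.14, and 1 rose: GINS4, a subunit of the replicative helicase complex, at 50.1, 49.0 and 54.6 CPM in sgHDAC7 and 40.5, 33.5 and 34.5 CPM in sgNT (log2 fold change 0.50 ± 0.10, edgeR adjusted p = 0.0317). With a term for replicate 1, 9 of the 34 were higher and 0 lower, and in replicates 2 and 3 alone 15 were higher and 0 lower. In these fits 5.78% and 9.72% of all genes were called higher, and 6.81% and 10.9% lower. With group alone 1.16% of all genes were called higher and 1.7% lower. Of 20 genes of G2 and M phase 16 were below 0, with a median of -0.07, and 1 rose: CDC20, an activator of the anaphase-promoting complex (log2 fold change 0.29 ± 0.06, edgeR adjusted p = 0.0369). The term for replicate 1 gave 1 higher and 1 lower of these 20, and replicates 2 and 3 alone 1 higher and 4 lower. The lower calls are 5% and 20% of the 20, beside the 6.81% and 10.9% of all genes.

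Other RNAs that normally lack a poly(A) tail were listed as well. Their values do not separate their own levels in the cells from the part that the beads kept. Of 154 listed in the table, 65 were tested and 0 were called in edgeR, against 12 higher and 0 lower at an unadjusted p under 0.05 and 1 higher by DESeq2. Over all genes, 9.18% were higher and 9.99% lower at an unadjusted p under 0.05, and DESeq2 called 2.1% higher. The median log2 fold change of these tail-less RNAs was 0.43, with 49 above 0 and 16 below. With a term for replicate 1, 1 was called higher and 0 lower, and in replicates 2 and 3 alone 10 were higher and 0 lower. In these fits 5.78% and 9.72% of all genes were called higher. They summed to 208, 228 and 223 CPM in sgHDAC7 and 199, 166 and 162 CPM in sgNT. The sgHDAC7 libraries were all higher, with the smallest gap in replicate 1. The part of bead capture in the histone result was not tested.

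The remaining members were low in counts or were not called. The 12 below the filter, H1-3, H1-4, H1-5, H2AC12, H2AC15, H2AZP1, H2BC12L, H2BC7, H3C13, H4C3, H4C5 and H4C9, had 0 to 22 counts in a library, and their differences were not detectable at this depth. With every row of the table in the fit, the median over the 47 clustered genes was -0.38. Of the 3 pseudogenes and antisense RNAs tested 0 were called in edgeR, with 0 at an unadjusted p under 0.05 and 0 by DESeq2. H2AZP3, an H2A.Z pseudogene, had the lowest fold change of all 50 at -1.51 ± 0.87, with 1.77, 5.01 and 1.38 CPM in sgHDAC7 and 1.78, 1.89 and 19.5 CPM in sgNT. That value came from 1 library, sgNT replicate 3, without which it was 0.55, and it did not pass (edgeR adjusted p = 0.383).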

How the data were processed

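Messenger RNA was captured with poly-T beads and copied with random hexamers, per the labels' protocols, in 3 sgHDAC7 and 3 sgNT libraries of F36P cells. The authors deposited whole-number read counts per gene (100% of values whole), used as unscaled counts, although the table's name says CPM. Per the submitters' processing notes hg38 and edgeR 3.32.1 were used; the sources used here do not give the aligner, counting tool, annotation or strand. All listed genes are above 0.5 CPM in 2 or more libraries, and histone genes below this are not analysed here. There were 0 further columns of values. Its NC columns were taken as sgNT, the sole other group. A count of 3 equals 0.24 to 0.299 CPM (counting error alone).

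Counts were fitted with edgeR 4.0.16 in R 4.3.3 (TMM scaling, quasi-likelihood test, two-sided, group alone) for 13841 genes with a mean of at least 1 CPM, with Benjamini-Hochberg adjustment over all of them and a threshold of 0.05. Printed CPM are TMM-scaled, and standard errors were derived from the fold change and the F statistic. Log2 ratios between replicates used a pseudocount of 0.5 CPM. An exact permutation test over 3 and 3 libraries cannot go below 0.1. Alternatives were 3 scalings, 2 filters, DESeq2 1.42.0, limma 3.58.1, a replicate block, a term for replicate 1, replicates 2 and 3 alone and each library left out. The code was tested on simulated counts. The members, lists and tests were chosen with earlier results of these data known. Histone genes given library by library were the called ones, the 8 clustered and 8 other members with the highest mean CPM and a fixed set of variants (18 in all, of which 1 is not reported here, though it stays in all counts, medians and sums); others are said to be chosen after their values were seen, or named as pairs or extremes.

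Gene spans and promoters came from RefSeq (GRCh38.p14): 62 of 62 members matched by symbol or synonym and 50 had a promoter. Transcripts came from GENCODE 29 for 61. Shared sequence is the percentage of a transcript's 50-base windows found in another gene's transcript.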

Additional observations from a re-analysis of the deposited data

How the results depend on the processing

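The median log2 fold change stayed between -0.59 and -0.38 for clustered genes and between -0.14 and -0.04 for variants over all 16 alternatives. None of these rests on the replicate 1 libraries alone, between which the median log2 ratio of clustered genes was -0.10. The 5 calls were kept under other scalings and filters, DESeq2 and each fit with a replicate term; limma lost H2BC12 (adjusted p = 0.0576). Counts moved more. Over all genes, 396 calls became 711 with DESeq2, 1743 with a replicate 1 term and 2847 in replicates 2 and 3 alone. For histone genes 5 became 10, 13 and 21, and for the 18 chosen by the rule for single genes 5 became 8, 8 and 12. Leaving out 1 library gave 27 to 1588 calls over all genes, 0 to 13 for histone genes and 0 to 9 for those 18. The called genes kept their direction in every omission, with a largest adjusted p of 0.127 to 0.209. Omissions were followed gene by gene only for members given with a fold change of their own. Among these, single omissions turned the sign of 6, whose log2 fold changes ran from -0.0106 to 0.0692 (H3-3B), -0.0120 to 0.0671 (H2AZ2), -0.18 to 0.0081 (H1-10), -0.077 to 0.54 (H2AC17), -0.013 to 0.82 (H2AC20) and -2.29 to 0.55 (H2AZP3); the cause was not tested. The replicate block gave 998 calls over all genes (7.21%) and 7 histone genes. Deviations from the group mean correlated at 0.303, 0.107 and 0.0968 between libraries numbered 1, 2 and 3. Between sgHDAC7 replicate 2 and sgNT replicate 3 they correlated at 0.159, and between sgHDAC7 replicate 3 and sgNT replicate 2 at 0.155. Replicate 1 libraries against differently numbered ones were at -0.216 to -0.179. As replicates 2 and 3 did not match by number, the numbers were not taken as pairs. Depth of 10039693 to 12521195 counts limits what can be said of the 12 members below the filter.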
